A study of Caenorhabditis elegans with 2 samples.

Results

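The PAR proteins are the partitioning proteins that divide the cortex of a cell into domains, and 8 of their genes in Caenorhabditis elegans were examined here: par-1, par-2, par-3, par-4, par-5, par-6, pkc-3 and cdc-42. A gene was measured through the probes that the array's annotation assigns to it alone, and 7 of the 8 genes had values on both arrays, out of 14777 genes in all. No probe was matched to par-4, the LKB1-like kinase, which was not analysed here. The set was chosen by gene name, with earlier results of these data known.

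The arrays set mRNA of L2 larvae of a glp-4 strain against a reference of mixed wild-type mRNA. Each of 2 arrays carried 1 preparation of glp-4 L2 RNA in the second channel, called preparation 1 and preparation 2, and the reference in the first. Mutants of glp-4 are temperature-sensitive and have few germ cells when grown warm, and at the L2, the second larval stage, no gametes or eggs are yet made. The allele, the growth temperature and the stages in the reference are not given in the labels. The channels differ in genotype and may differ in stage, and their parts in a ratio cannot be told apart. Nothing says that the preparations came from separate cultures, so a p-value here covers only the spread of these hybridisations, and that spread may be technical.

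PAR proteins were found through mutants in which the zygote divides symmetrically. In the C. elegans zygote the PDZ-domain scaffolds PAR-3 and PAR-6, the atypical protein kinase C PKC-3 and the small GTPase CDC-42 occupy the anterior cortex, and the kinase PAR-1 and the RING-finger protein PAR-2 occupy the posterior cortex. Each set keeps the other out. PAR-5, a 14-3-3 protein that binds phosphorylated proteins, helps to hold the border, and PAR-4 acts as a kinase throughout. The oocyte supplies the zygote with these proteins and their mRNAs, and PAR-3, PAR-6 and PKC-3 also act in epithelia and other somatic cells.

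Values are log2 ratios, so a difference of 1 is 2-fold and 0 means equal signal in both channels. The direction of the ratio is not stated. It was read as likely glp-4 L2 over reference because the yolk genes (3 of 3 measured) and the major sperm protein genes (30 of 30) were below 0 on both arrays; every sign below would turn if that reading were wrong, and these lists are no finding. The median of all genes was 0.10 with preparation 1 and 0.02 with preparation 2. The arrays gave the same sign for 67.8% of genes and differed by a median of 0.63. A gene was called where the limma test over all 14777 genes gave a Benjamini-Hochberg adjusted p under 0.05. In bulk RNA, fewer cells of a type and less RNA per cell cannot be told apart.

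In glp-4 L2 RNA par-3 was the PAR gene farthest from the reference, 8.56-fold lower, and the only one of the 7 past the test. par-1 was low on both arrays but did not pass. The values of par-2, par-5 and par-6 lay within 1 log2 unit of 0 on both arrays, and pkc-3 and cdc-42 differed in sign between the arrays. The count was thus 1 of 7 lower and 0 of 7 higher by limma, against 1.50% and 0.365% of all genes, or 1.86% in either direction. Of the 7 genes, 3 were below 0 on both arrays and 2 above 0 on both, against 30.8% and 37.0% of all genes. At an unadjusted p under 0.05, 2 of 7 were lower and 0 higher, where 18.7% of all genes passed in either direction.

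**Figure D1:**
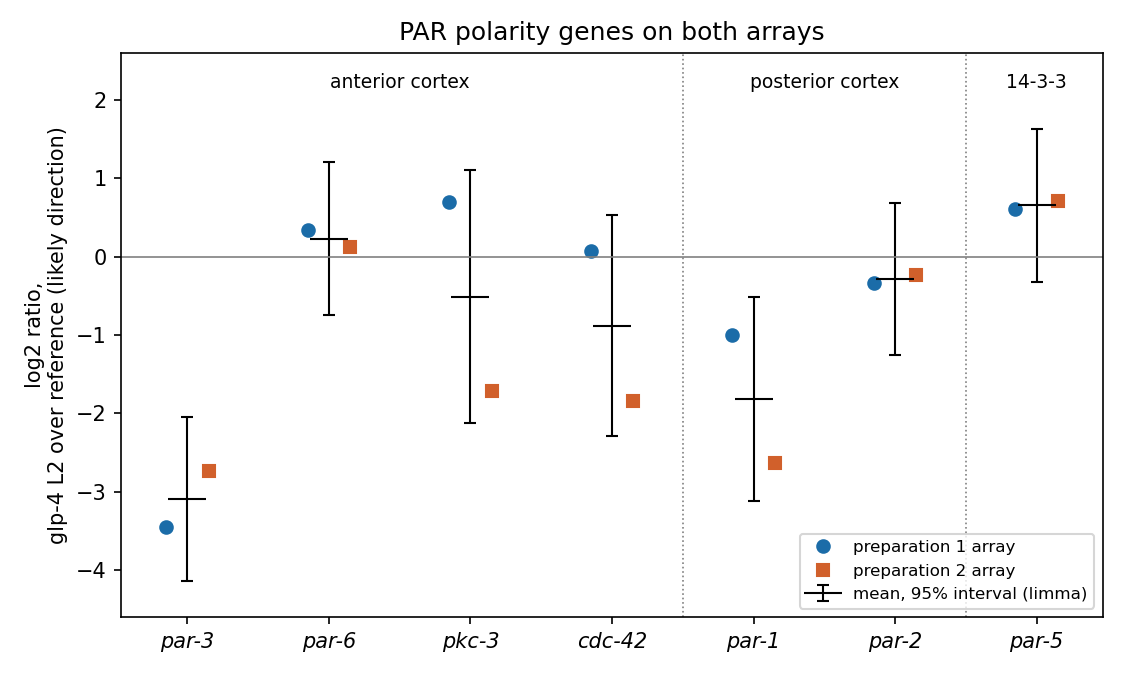
Log2 ratio (glp-4 L2 over reference, likely direction) of the 7 measured PAR genes, grouped by where their proteins act in the zygote. Circles are the preparation 1 array, squares the preparation 2 array, and bars the mean with its 95% limma interval; the intervals of par-3 and par-1 lie below 0, and pkc-3 and cdc-42 have 1 array on each side of 0.

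Among the anterior genes, par-3 encodes the PDZ scaffold that brings PAR-6 and PKC-3 to the cortex. Its log2 ratio was -3.46 with preparation 1 and -2.74 with preparation 2, a mean of -3.10 ± 0.51 (SD, n = 2; 95% interval -4.14 to -2.05; limma adjusted p = 0.0400). Both arrays placed it near the low end of all genes, with 0.934% of genes below it in preparation 1 and 2.19% in preparation 2. The call is close to the threshold: limma adjusted p was 0.0556 with ratios limited to 5 and 0.0555 with a mean trend in the prior, while the mean stayed between -3.16 and -2.80 in all fits. The gene has 1 probe here, so no second probe checks the value.

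par-6 encodes the other PDZ scaffold of the anterior set, which binds PKC-3 and CDC-42. Its log2 ratio was 0.34 with preparation 1 and 0.12 with preparation 2 (mean 0.23 ± 0.15, SD, n = 2; 95% interval -0.75 to 1.21; limma adjusted p = 0.770). These are middle values, with 61.8% and 54.8% of genes below them with preparations 1 and 2. The log2 ratio of par-3 minus that of par-6 was -3.79 with preparation 1 and -2.86 with preparation 2. Both arrays therefore show an unequal difference from the reference for these partner genes, a within-array comparison of different probes to which no test was applied.

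pkc-3 encodes the atypical protein kinase C that phosphorylates PAR-1 and PAR-2 and keeps them off the anterior cortex. Its log2 ratio was 0.70 with preparation 1 and -1.72 with preparation 2 (mean -0.51 ± 1.71, SD, n = 2; 95% interval -2.12 to 1.10; limma adjusted p = 0.687). The arrays were 2.42 apart, more than for 95.7% of all genes, and gave opposite directions. cdc-42, the GTPase that activates this complex, had a log2 ratio of 0.07 with preparation 1 and -1.84 with preparation 2 (mean -0.88 ± 1.35, SD, n = 2; 95% interval -2.29 to 0.53; limma adjusted p = 0.435). Only the preparation 2 array placed cdc-42 among low genes, with 6.92% of genes below it against 48.3% with preparation 1. The intervals of both genes reach from a more than 4-fold lower level to a higher one, so neither direction is settled.

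Among the posterior genes, par-1 encodes the kinase that acts on cytoplasmic RNA-binding proteins such as MEX-5. Its log2 ratio was -1.0 with preparation 1 and -2.63 with preparation 2 (mean -1.82 ± 1.16, SD, n = 2; 95% interval -3.12 to -0.51; limma adjusted p = 0.167). With par-3 it made 2 of 7 PAR genes at least 2-fold lower on both arrays, against 7.35% of all genes, but it was just at that limit with preparation 1 and the arrays differed by 1.63. par-1 has the longest span of the set, 33335 base pairs in the WBcel235 annotation. On the preparation 2 array the 3690 genes with the longest spans (3738 base pairs and more) had a median of -0.31, against 0.30 for the 3692 genes with the shortest (1328 base pairs and less), and with preparation 1 the medians were 0.13 and 0.01. With the trend on gene span removed, the mean of par-1 was -1.35 and that of par-3 -2.80 (limma adjusted p = 0.193 and 0.0316).

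par-2 encodes the RING-finger protein that holds PAR-1 at the posterior cortex. It was the PAR gene with more than 1 probe, and its probes gave log2 ratios of -0.39 and -0.29 with preparation 1 and -0.28 and -0.19 with preparation 2. The 4 readings were all slightly below 0, and the gene's mean was -0.29 ± 0.07 (SD, n = 2; 95% interval -1.26 to 0.69; limma adjusted p = 0.709). The mean was 0.03 with the trend on gene span removed, so no direction is given for it. The log2 ratio of par-1 minus that of par-2 was -0.66 with preparation 1 and -2.40 with preparation 2.

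par-5, the 14-3-3 gene, had the highest mean ratio of the set. Its log2 ratio was 0.60 with preparation 1 and 0.71 with preparation 2 (mean 0.66 ± 0.08, SD, n = 2; 95% interval -0.32 to 1.63; limma adjusted p = 0.406). The other 14-3-3 gene of C. elegans, ftt-2, was at -0.06 and 0.13 with preparations 1 and 2 (mean 0.04 ± 0.13, SD, n = 2). par-5 was thus 0.66 and 0.58 above ftt-2 with preparations 1 and 2. The 14-3-3 genes are close paralogs, so RNA of either may bind the probe of the other, which was not tested here.

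**Figure D2:**
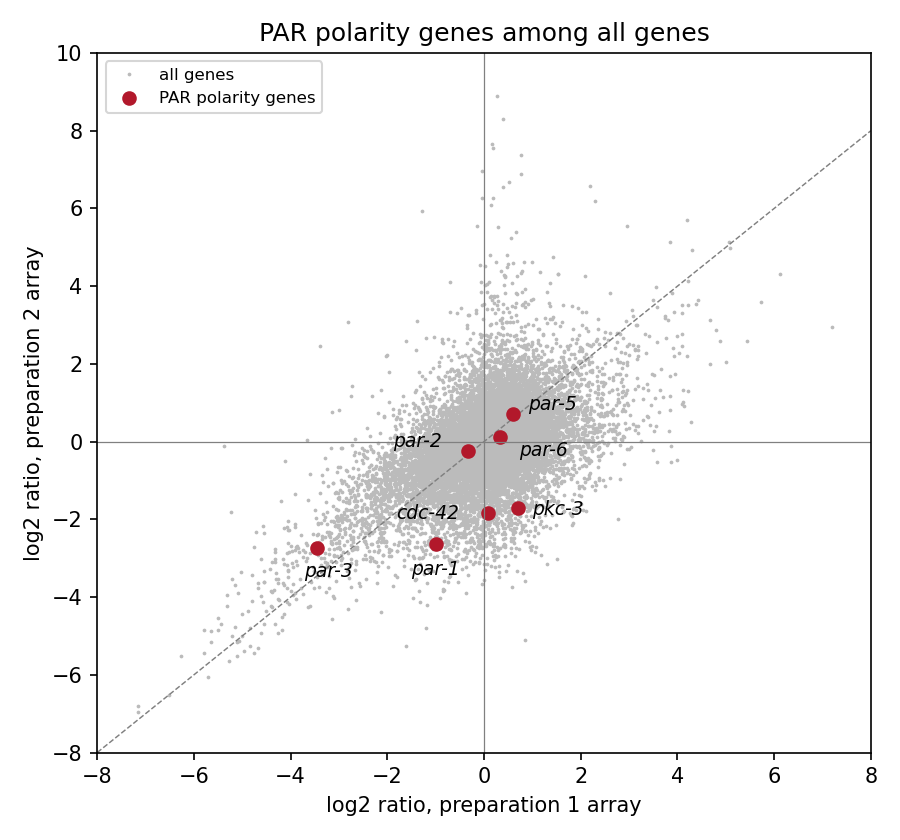
Log2 ratio with preparation 1 (horizontal) against that with preparation 2 (vertical) for 14777 genes in grey and the 7 PAR genes in red; the dashed line marks equal values. par-2, par-5 and par-6 lie near the line inside the main cloud, par-3 at its low end, and par-1, cdc-42 and pkc-3 lie below the line, lower with preparation 2.

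By mean log2 ratio the order was par-3, par-1, cdc-42, pkc-3, par-2, par-6 and par-5, from lowest to highest. The 95% interval of each gene overlaps that of its neighbour in this order. No difference between PAR genes was tested, so the order is a description only. The interval of par-3 (-4.14 to -2.05) lies below those of par-2, par-6 and par-5, and overlaps those of par-1, cdc-42 and pkc-3. The median of the 7 PAR genes was -0.51 over both arrays, beside 0.08 for all genes, and it depended on the array, at 0.07 with preparation 1 and -1.72 with preparation 2. The means differed within each cortical set: those of the 4 anterior genes ran from -3.10 to 0.23, and those of the posterior genes were -1.82 and -0.29.

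The annotation places par-1 on chromosome V, par-2 and par-3 on III, par-5 on IV, par-6 on I and pkc-3 and cdc-42 on II. Protein-coding genes overlap 5 of the 7 measured PAR genes there, and the labels give neither the position nor the strand of a probe. AH10.4, which overlaps par-1, was at -1.57 and -0.85 with preparations 1 and 2. R07G3.8, which overlaps cdc-42, was at 0.18 and -1.34, and ccpp-6, which overlaps pkc-3, was at 0.64 and 0.20. The genes overlapping par-2 and par-3 were not measured here. par-5 and par-6 have no overlapping protein-coding gene in this annotation.

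Genes that work with the PAR proteins were taken from 9 lists of polarity partners and paralogs, of which 92 of 110 genes were measured. By limma 7 were lower, 0 higher and 85 did not pass, and at an unadjusted p under 0.05 there were 32 lower and 1 higher. Of all genes 1.50% were lower and 0.365% higher by limma, and 18.7% had an unadjusted p under 0.05. The median log2 ratio over the 92 genes was -0.72, at -0.50 with preparation 1 and -1.03 with preparation 2. Those past the test belong to the lists of cytoplasmic polarity, the actomyosin cortex and spindle positioning. Of the 25 paralog, kinase and CDC-42 partner genes 0 passed by limma, which is near the 1.86% of all genes called.

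The list of cytoplasmic polarity and maternal segregation genes lay lowest. Of 11 measured, 5 were lower, against 1.50% of all genes, and 6 did not pass, and 11 of 11 were below 0 on both arrays, against 30.8% of all genes; their median was -2.50. mex-5 and mex-6 encode the zinc-finger proteins that carry the PAR asymmetry into the cytoplasm. mex-5 was at -4.84 and -5.27 with preparations 1 and 2 (mean -5.05 ± 0.30, SD, n = 2; limma adjusted p = 0.0208), and mex-6 at -3.74 and -3.92 (mean -3.83 ± 0.13, SD, n = 2; limma adjusted p = 0.0257). Both arrays thus showed more than 10-fold lower signal for each of them. The RNA-binding protein genes pos-1 (-5.09 ± 0.05) and spn-4 (-4.51 ± 0.46) were lower as well (limma adjusted p = 0.0208 and 0.0231), and so was zif-1, named to complete the count after its value was seen, which encodes an adaptor for the degradation of germline proteins in somatic blastomeres (-2.68 and -2.75 with preparations 1 and 2). The polo-like kinase gene plk-1, whose product binds MEX-5, did not pass, at -1.04 and -2.98 with preparations 1 and 2.

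In the cortical actomyosin list, which holds the contractile network that moves the anterior PAR proteins, 1 of 18 genes was lower, against 1.50% of all genes, and 17 did not pass. It was pod-1, which encodes a coronin-like actin-binding protein needed for zygote polarity, at -3.52 with preparation 1 and -3.32 with preparation 2 (mean -3.42 ± 0.14, SD, n = 2; limma adjusted p = 0.0299). Of the 18 genes 16 were below 0 on both arrays, against 30.8% of all genes, and the median was -0.79. The non-muscle myosin gene nmy-2, the motor of cortical flow, had -2.76 with preparation 1 and -1.25 with preparation 2 and did not pass. The regulatory light chain gene mlc-4 was near 0, at -0.19 and -0.23.

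Spindle positioning genes, which turn cortical polarity into unequal division, had 1 of 13 lower, against 1.50% of all genes, and 12 not past the test. Their median of -0.58 depended on the array, at -0.24 with preparation 1 and -0.94 with preparation 2. let-99, whose product forms a cortical band between the PAR domains, was at -2.41 and -2.70 with preparations 1 and 2 (mean -2.56 ± 0.20, SD, n = 2; limma adjusted p = 0.0492). That call is at the threshold and was lost in 5 of 9 other fits, with limma adjusted p between 0.0501 and 0.0905 there. Among 9 centrosome and symmetry-breaking genes 0 passed by limma and 4 were lower at an unadjusted p under 0.05, against 18.7% of all genes in either direction. The scaffold gene spd-5 (-2.21 ± 1.12) and the Aurora kinase gene air-1 (-1.83 ± 0.61) had the means farthest from 0 there (SD, n = 2; limma adjusted p = 0.116 and 0.117).

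**Figure D3:**
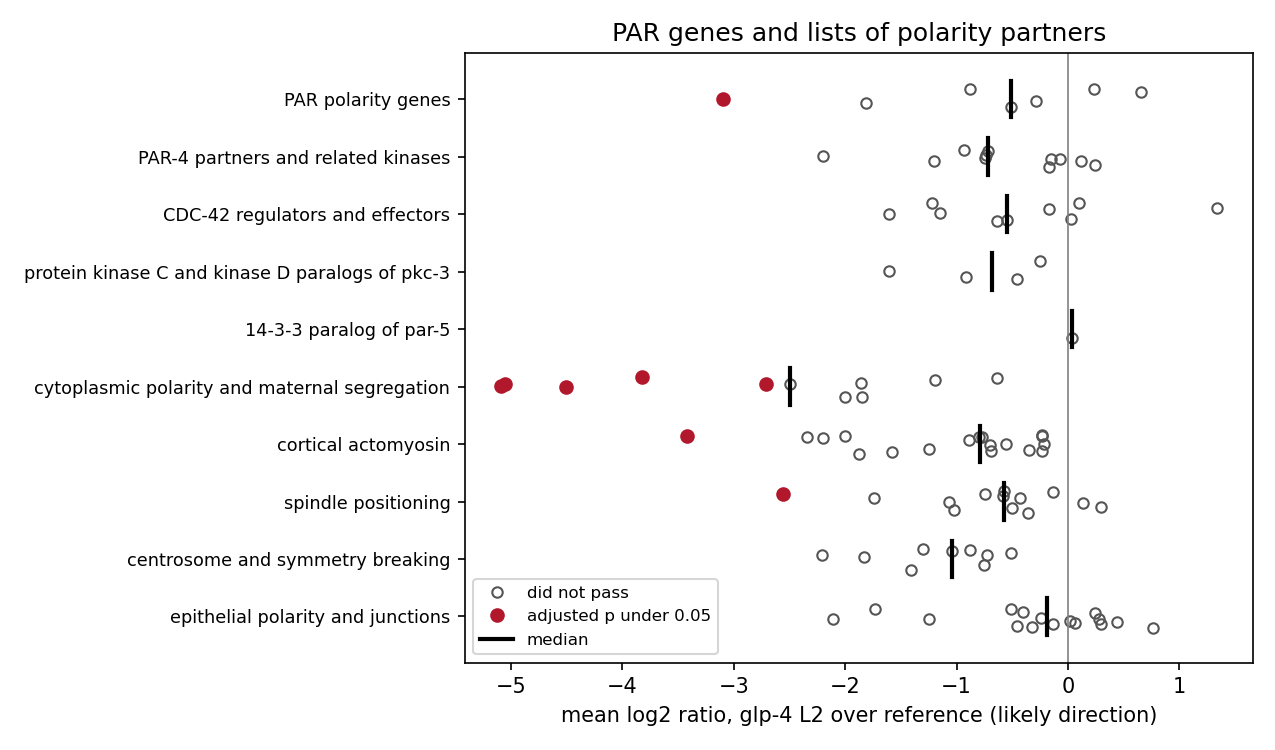
Mean log2 ratio (glp-4 L2 over reference, likely direction) of each measured gene in the PAR set and in 9 lists of polarity partners. Filled red circles passed the limma test, open circles did not, and black lines mark medians; the 4 lowest circles of all belong to the cytoplasmic and maternal list, and the PAR genes spread from -3.10 to 0.66.

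Kinases and partners of PAR-4 had 0 of 11 past the limma test, against 1.86% of all genes. At an unadjusted limma p under 0.05, 2 were lower, where 18.7% of all genes passed in either direction. The median of the list was -0.71 (-0.04 with preparation 1 and -0.83 with preparation 2). The mean farthest from 0 was that of pig-1, a MELK-like kinase that acts with PAR-4 in asymmetric neuroblast divisions, at -2.06 and -2.33 with preparations 1 and 2 (mean -2.20 ± 0.19, SD, n = 2; limma adjusted p = 0.0647). It passed with each array centred on its median and after quantile normalization (limma adjusted p = 0.0428 and 0.0319). The catalytic AMP-activated kinase subunit gene aak-1 was at -1.57 and -0.83 (limma adjusted p = 0.225). strd-1, the gene of the STRAD-like cofactor of PAR-4, was at -0.13 and -0.18.

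CDC-42 regulators and effectors had 0 of 9 past the limma test, against 1.86% of all genes. At an unadjusted limma p under 0.05, 2 were lower and 1 higher, where 18.7% of all genes passed in either direction. The median of the list changed sign between arrays (0.28 with preparation 1, -0.70 with preparation 2). The effector kinase gene mrck-1 was at -1.75 and -1.46 with preparations 1 and 2 (limma adjusted p = 0.127). The 1 gene higher at the unadjusted threshold was rhi-1, at 0.54 and 2.13 (limma adjusted p = 0.255). Of the protein kinase C and D genes set beside pkc-3, pkc-1 was at -0.57 and -1.26, pkc-2 at 0.16 and -1.07, dkf-1 at -0.04 and -0.46 and dkf-2 at -0.35 and -2.86, and 0 of these 4 passed by limma at the adjusted or the unadjusted threshold. All 4 had a lower ratio with preparation 2 than with preparation 1, and so did 4 of the 7 PAR genes (par-1, par-6, pkc-3 and cdc-42), against 49.7% of all genes.

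Epithelial polarity and junction genes, which act with PAR-3, PAR-6 and PKC-3 in somatic tissues, had 0 of 16 past the limma test, against 1.86% of all genes. At an unadjusted limma p under 0.05, 3 were lower and 0 higher, where 18.7% of all genes passed in either direction. The median of the list was -0.19 (0.15 with preparation 1 and -0.57 with preparation 2). The spectrin gene sma-1 was at -2.98 and -1.25 with preparations 1 and 2, and let-413, the gene of the basolateral Scribble-like protein, at -1.85 and -1.61 (limma adjusted p = 0.134 and 0.110). lgl-1, whose product acts beside PAR-2 at the posterior cortex, was at 0.88 and -0.75 and did not pass. The signs of 10 of the 16 genes differed between the arrays, as those of pkc-3 and cdc-42 did, whereas 67.8% of all genes had the same sign on both. Such opposite signs were not particular to this list. They were seen for 5 of 9 CDC-42 regulators and effectors and 6 of 8 neuron markers. They were rarer in the cytoplasmic polarity list (0 of 11) and the cortical actomyosin list (2 of 18).

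Among the 92 partner and paralog genes, the nearest to each PAR gene by Euclidean distance over the log2 ratios of both arrays was plk-1 for par-1, mlc-4 for par-2, pod-1 for par-3, lin-2 for par-5, ric-8 for par-6, pac-1 for pkc-3 and kin-29 for cdc-42. The distance was 0.59 for par-3 with pod-1 and 0.34 for par-1 with plk-1. It lay between 0.06 and 0.29 for the others. With 2 arrays a likeness rests on 2 values.

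Germ cell and gamete markers were low in the same RNA. Of 11 measured germ cell markers 11 were below 0 on both arrays, against 30.8% of all genes. By limma 5 of the 11 were lower, against 1.50% of all genes (median -2.76, range of means -3.95 to -1.70). Of 10 oocyte and eggshell markers 10 were lower by limma, against 1.50% of all genes (median -4.82, range of means -5.45 to -3.43). The mean of par-3 lies within the range of the germ cell markers, that of par-1 at its upper end, and those of cdc-42, pkc-3, par-2, par-6 and par-5 above it. That place is not particular to germ cell markers. The means of hypodermis markers ran from -3.19 to 1.16, a range that holds par-3 and par-1 as well. Those of body wall muscle markers ran from -2.13 to 1.72, which holds par-1. The ranges of pharynx, intestine and neuron markers hold neither. The medians of somatic markers other than intestine changed sign between the arrays. With preparations 1 and 2 they were 0.37 and -0.55 for hypodermis (8 genes), 0.57 and -0.10 for pharynx (7), 1.23 and -0.40 for body wall muscle (6) and 0.59 and -0.50 for neurons (8). Those of the intestine (8) were 1.75 and 0.57. By limma 2 of 8 intestine markers and 1 of 7 pharynx markers were higher, against 0.365% of all genes. For hypodermis 1 of 8 markers was lower, against 1.50% of all genes. Of 6 body wall muscle and 8 neuron markers 0 passed, which is near the 1.86% of all genes called. The part of these cell types, germ line or somatic, in the PAR values was not tested.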

How the data were processed

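The deposited table holds a log2 ratio for each probe on each array. The base was inferred from the values, since the ratios that base 2 gives are whole steps of 0.001, to within 0.002 of a step, in 99.1% of cases for preparation 1 and 98.8% for preparation 2. How the authors corrected background, scaled the arrays and oriented the ratio is not given in the labels. Intensities were not part of the data, which leaves the signal over background unknown, and the number of arrays limits the precision.

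Of 21632 probes the platform annotation gave 1 gene to 16450. Names were updated by Entrez ID through RefSeq's WBcel235 table (16360 probes), and probes of a gene were averaged per array. The mean of each gene was compared with 0 by limma 3.58.1 under R 4.3.3 (intercept, eBayes, prior of 4.52 degrees of freedom) and Benjamini-Hochberg adjustment over 14777 genes. The reference counts as 1 control RNA whose spread is not in the test. On 20 simulated tables of 14777 genes, 6.30% of changes of 2 log2 units, 56.7% of 3 and 90.9% of 4 were recovered. The spread of each simulated gene was drawn from the limma prior of the real fit, with independent normal values on the arrays. The model of the test was thus true there by construction, and recovery on the real arrays may differ.

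The members and lists were chosen with earlier results of these data known. Named were all PAR genes and paralogs, up to 4 called genes per other list (or the 2 largest means of consistent sign), lgl-1 and chin-1 (for which no value was analysed here) and the nearest gene to each PAR gene. Genes named as examples beyond this (nmy-2, strd-1, zif-1) were chosen after their values were seen. Some genes of the named rule are not reported here. The replicates share 1 group, so no samples were paired.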

Additional observations from a re-analysis of the deposited data

How the results depend on the processing

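Of 63 values of PAR genes under 9 other fits, 60 kept their direction and their side of the threshold. That count says little about stability. The fits that limited ratios, handled probes otherwise or changed the prior left every PAR log2 ratio as it was, so direction could not turn there. Only par-3 was called in the main fit, so the other PAR genes had no call to lose. The PAR count fell to 0 lower with ratios limited to 5 and with a mean trend in the prior, where the limma adjusted p of par-3 was 0.0556 and 0.0555. par-2 turned to 0.031 with the trend on gene span removed, a fit added after seeing the data. ftt-2 turned to -0.024 with arrays centred and to -0.0060 with the trend on gene span removed. Centring subtracts 0.10 from preparation 1 and 0.02 from preparation 2. The median of the PAR genes ran from -1.72 to 0.07 when either array was left out, which leaves a value with no test. Over all genes, 221 lower and 54 higher calls became 377 and 90 with arrays centred, 447 and 158 after quantile normalization, 115 and 25 with ratios limited to 5, 118 and 0 with a mean trend in the prior, and 380 and 113 with the trend on gene span removed. The cause of these shifts was not tested. No paired analysis was possible because there is 1 group. In simulated tables of 2 arrays with 200 changed genes and all others unchanged, 6.30% of 4-fold changes were recovered. Gene spread in those tables was drawn from the limma prior of the real fit. Over all sizes of change, 8.45% of the calls in the simulated tables were false. On the real arrays 18.7% of all genes had an unadjusted limma p under 0.05. The recovery of a 4-fold change of a PAR gene may therefore differ from the simulated one.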
